A study of Homo sapiens with 4 samples.

Results

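The genes described here make, modify and spend nicotinamide adenine dinucleotide (NAD) in Cal-62 cells, a human anaplastic thyroid carcinoma line, treated with niraparib or with its vehicle. They were chosen by name: NAMPT, NAPRT, NMNAT1, NADSYN1, NADK, NADK2, NNMT, NNT, SIRT1 and SIRT6, 10 of the 16717 genes in the expression table. The rule uses names alone, although it was set with earlier results of these data known. Polyadenylated RNA was sequenced from 2 libraries of Cal-62 cells given DMSO (dimethyl sulfoxide, the solvent) and 2 libraries of Cal-62 cells given niraparib, an inhibitor of the NAD-consuming enzymes PARP1 and PARP2. No other agent or genetic change is named for either group, and the concentration and duration used for the sequenced cells are not given in the sources used here. Nothing in the labels says that the replicates came from separate cultures. The p-values below weigh each difference between groups against a spread between libraries that may be technical. Part of that spread is estimated from other genes.

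NAD carries electrons between metabolic enzymes and is also broken down by signalling enzymes. Cells build it de novo from tryptophan, from nicotinic acid (the Preiss-Handler route) or, in most tissues mainly, from nicotinamide that has been released by NAD-consuming enzymes and is recycled. PARPs and sirtuins both cleave NAD and release nicotinamide, and NAD kinases convert part of the pool to NADP, the source of reducing power for biosynthesis and antioxidant defence.

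Expression is given in TPM, the share of a library's transcripts that a gene accounts for after correction for its length, a unit that allows levels to be compared between genes. A change is the niraparib mean minus the DMSO mean of log2(TPM + 1), a scale that understates the change of low genes. It was tested with limma over the 13377 genes with at least 1 TPM in at least 2 libraries, with Benjamini-Hochberg adjustment over all of them and a threshold of 0.05. Across all of these genes 2780 were higher and 1559 lower with niraparib, so that 64.1% of the calls were higher. With median-of-ratios scaling in place of TPM alone, 47.2% of the calls were higher. Read depth is unknown, because TPM does not keep it. Of the thyroid markers, PAX8 lay between 189 and 207 TPM and did not pass the test. FOXE1 lay between 1.95 and 4.61 TPM and was called higher (0.73, limma adjusted p = 0.0311). TG, TSHR, NKX2-1 and SLC5A5 had no entry in the table. Of the epithelial markers, the keratins KRT8 and KRT18 were at or above 1078 TPM in every library and EPCAM lay between 27.3 and 29.6 TPM. KRT19 was higher with niraparib (330.4 and 341.3 TPM, then 638.7 and 641.2 TPM). KRT8 was also called higher (0.14, limma adjusted p = 0.0209), KRT18 was called lower (-0.11, limma adjusted p = 0.0421), and EPCAM did not pass. CDH1, which encodes E-cadherin, was at or below 0.28 TPM and was not tested. Among markers of blood, endothelial and fibroblast cells only the monocyte gene CD14 had an entry in the table, at 2.79 to 4.82 TPM. It was called higher (0.52, limma adjusted p = 0.0481). After adjustment for GC content, described further on, only KRT18 and KRT19 of the markers named so far passed. PTPRC, CD3E, PECAM1, VWF, DCN and LUM had none, so their levels are not given.

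All 10 NAD genes passed the filter on low values. NADSYN1 was higher with niraparib (1.29-fold in mean TPM) and NADK2 was lower (0.675-fold), and the other 8 did not pass the test. Over all genes tested the share called was 32.4% in either direction, 20.8% for higher and 11.7% for lower, so 1 of 10 in each direction is no more than the background. The niraparib libraries lay on one side of both DMSO libraries for 7 of the genes, above them for NADSYN1, NMNAT1, NNMT and SIRT6 and below them for NAMPT, NADK2 and NNT. Among all genes tested 70.9% showed such a separation, 41.9% above and 29.0% below. The median change of the 10 genes was 0.06 on the log2 scale, beside 0.07 over all genes.

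**Figure D1:**
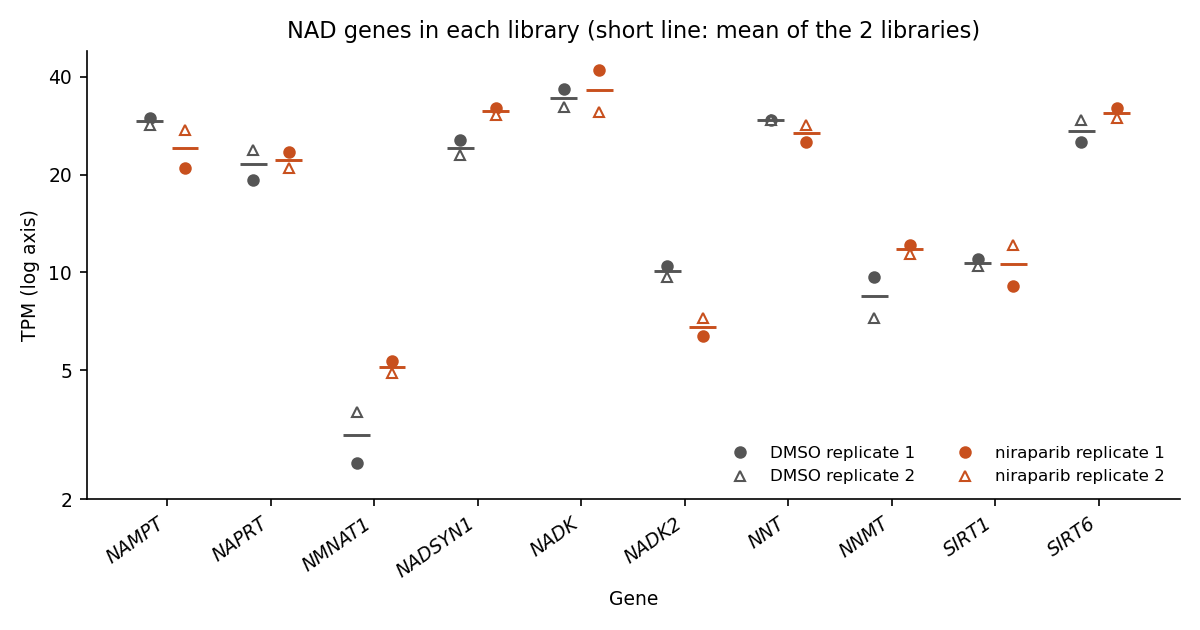
TPM (log axis) of the 10 NAD genes in each of the 4 libraries, with circles for replicate 1, triangles for replicate 2 and a short line at the mean of each group. NMNAT1 is the lowest gene in both groups, and NADK2 and NADSYN1 are separated between the groups while NADK, NAPRT and SIRT1 overlap.

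NADSYN1 (chromosome 11 from 71164155 to 71235153, plus strand, GRCh37) encodes NAD synthetase, which amidates nicotinic acid adenine dinucleotide in the last step of the Preiss-Handler and de novo routes. It was at 25.5 and 22.9 TPM in the DMSO libraries and at 32.0 and 30.6 TPM in the niraparib libraries, a mean of 24.2 ± 1.80 against 31.3 ± 1.03 (SD, n = 2 each). Both niraparib libraries were above both DMSO libraries. The log2 change was 0.36 (SE 0.087, 95% interval 0.14 to 0.58, limma adjusted p = 0.0316). The call was lost when any one of the 4 libraries was left out, with changes of 0.29 to 0.43 and limma adjusted p of 0.0618 to 0.138. It was also lost with median-of-ratios scaling (0.26, limma adjusted p = 0.0739) and after adjustment for GC content (0.17, limma adjusted p = 0.199).

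NADK2 (chromosome 5 from 36192691 to 36242381, minus strand, GRCh37) encodes the mitochondrial NAD kinase, which makes NADP inside the organelle. It was at 10.5 and 9.68 TPM with DMSO and at 6.36 and 7.24 TPM with niraparib, a mean of 10.1 ± 0.55 against 6.80 ± 0.62 (SD, n = 2 each). The niraparib values both lay below the DMSO values. This was a log2 change of -0.51 (SE 0.12, 95% interval -0.82 to -0.20, limma adjusted p = 0.0320). The call was kept with median-of-ratios scaling (-0.60, limma adjusted p = 0.0214), but not when any one of the 4 libraries was left out (limma adjusted p of 0.0565 to 0.141) or after adjustment for GC content (-0.28, limma adjusted p = 0.116). Exons of NADK2 share 365 bases with exons of SKP2 on the opposite strand, and whether reads were counted by strand is not given in the sources used here. SKP2, a subunit of a ubiquitin ligase of the cell cycle, was itself lower, at 27.0 and 26.4 TPM with DMSO and 17.5 and 14.6 TPM with niraparib, and its part in the NADK2 value was not tested.

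NMNAT1 had the largest change among the 10. The sequences upstream of its start site and of those of the 2 called genes are shown for their base composition. They are the 250 bases before the start site in RefSeq (GRCh38.p14), 5′ to 3′ on the gene's strand, with GGGCGG or its complement CCGCCC in capitals, the core that Sp1-family factors recognise. For NADK2 the most upstream of 3 annotated start sites is given. The GC content of the windows was 77.6% for NADSYN1, 66.0% for NADK2 and 68.8% for NMNAT1. That of their longest transcripts was 57.4%, 40.4% and 45.7%. The trend described further on uses the transcripts, so the windows do not bear on it.
NADSYN1, chr11:71452953-71453202, plus strand: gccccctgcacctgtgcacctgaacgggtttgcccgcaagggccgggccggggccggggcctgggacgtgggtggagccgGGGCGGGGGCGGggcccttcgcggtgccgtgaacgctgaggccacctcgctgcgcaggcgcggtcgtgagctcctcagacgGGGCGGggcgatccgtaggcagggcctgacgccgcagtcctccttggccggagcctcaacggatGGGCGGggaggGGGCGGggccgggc
NADK2, chr5:36242280-36242529, minus strand: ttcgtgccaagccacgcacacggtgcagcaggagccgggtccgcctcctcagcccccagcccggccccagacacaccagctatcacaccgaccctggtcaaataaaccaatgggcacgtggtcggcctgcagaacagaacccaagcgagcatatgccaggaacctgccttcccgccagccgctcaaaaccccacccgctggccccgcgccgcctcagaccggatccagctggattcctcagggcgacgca
NMNAT1, chr1:9943225-9943474, plus strand: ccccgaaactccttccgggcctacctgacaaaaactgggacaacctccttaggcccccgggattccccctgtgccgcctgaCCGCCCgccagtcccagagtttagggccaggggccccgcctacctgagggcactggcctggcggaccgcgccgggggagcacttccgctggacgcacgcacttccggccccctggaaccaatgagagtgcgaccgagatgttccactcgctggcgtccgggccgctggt
The window of NADSYN1 held 5 matches to this hexamer, that of NMNAT1 held 1 and that of NADK2 held none, while the window of the second NADK2 start site held 3. At least 1 match was present in 42.6% of 35116 RefSeq promoters of the same length and 5 or more in 4.15%. The NADK2 window contained 1 CACGTG, the E-box core bound by Myc-family factors, and those of NADSYN1 and NMNAT1 held none. This core was present in 6.35% of all promoters. Members that were not called also had it, with 2 for SIRT1 and 1 each at start site 2 of NADK and of NNT. It was absent at NADK2 start sites 2 and 3, at the other NADK and NNT start sites, and for NAMPT and SIRT6. The GGGCGG hexamer had 4 matches for SIRT1, SIRT6 start site 1 and NADK start site 2, close to the 5 of NADSYN1. The windows shown had 29, 19 and 21 CG dinucleotides for NADSYN1, NADK2 and NMNAT1, where the median of all promoters was 11. NADK2 start sites 2 and 3 had 25 and 29. Windows of members that were not called ran from 5 at start site 3 of NADK to 34 for NAMPT. Such matches describe the letters of these windows, and binding was not measured here.

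The remaining enzymes that complete NAD synthesis were NMNAT1 and the entry enzymes NAMPT and NAPRT. NMNAT1 (chromosome 1 from 10003486 to 10045559, plus strand, GRCh37) encodes the nuclear adenylyltransferase that turns the mononucleotides into dinucleotides. It was at 2.59 and 3.71 TPM with DMSO and at 5.32 and 4.91 TPM with niraparib. The niraparib values both exceeded the DMSO values, and the ratio of means was 1.62. A log2 change of 0.57 (SE 0.18, 95% interval 0.11 to 1.04) did not pass the test (limma adjusted p = 0.0672), with the DMSO libraries differing from each other by more than the niraparib libraries did. After adjustment for GC content it was 0.64 (limma adjusted p = 0.0562).

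NAMPT (chromosome 7 from 105888744 to 105926412, minus strand, GRCh37) encodes the rate-limiting enzyme of nicotinamide salvage. It was at 29.9 and 28.4 TPM with DMSO and at 21.0 and 27.4 TPM with niraparib. Both niraparib libraries were below the DMSO libraries, but the second niraparib library lay closer to the DMSO libraries than to its own replicate. The log2 change was -0.27 (SE 0.14, 95% interval -0.61 to 0.07, limma adjusted p = 0.184). It passed the test only without the second niraparib library (-0.46, limma adjusted p = 0.0429), and without the first it was -0.09. NAMPT had the lowest GC content of the 10, 34.3%, and after adjustment for GC content its change was 0.14 (limma adjusted p = 0.363). The pseudogene NAMPTP1 has its own entry, at 2.02 and 2.50 TPM with DMSO and 1.81 and 1.31 TPM with niraparib, so reads shared between the copies make the NAMPT level uncertain.

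NAPRT (chromosome 8 from 144656955 to 144660819, minus strand, GRCh37) encodes the first enzyme of the Preiss-Handler route, which uses nicotinic acid. It was at 19.3 and 23.9 TPM with DMSO and at 23.4 and 20.9 TPM with niraparib. The niraparib libraries lay between the DMSO libraries. The log2 change was 0.04 (95% interval -0.28 to 0.36, limma adjusted p = 0.822), and it was -0.05 with median-of-ratios scaling and -0.31 after adjustment for GC content (limma adjusted p = 0.0919). The ratio of NAMPT to NAPRT in TPM was 1.55 and 1.19 with DMSO and 0.896 and 1.31 with niraparib, so the ranges overlapped. NAMPT, NAPRT and NMNAT1 share 545, 855 and 436 exon bases with annotated noncoding genes that were not analysed here, and reads from those bases could be assigned either way.

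Conversion of NAD to NADP, and of NADH to NADPH, is represented by NADK, NADK2 and NNT. NADK (chromosome 1 from 1682671 to 1711896, minus strand, GRCh37), the cytosolic kinase, was at 36.6 and 32.2 TPM with DMSO and at 41.9 and 31.1 TPM with niraparib. The niraparib libraries enclosed the DMSO libraries, one higher and one lower. Its log2 change was 0.07 (95% interval -0.32 to 0.46, limma adjusted p = 0.757), and it was -0.03 with median-of-ratios scaling and -0.11 after adjustment for GC content. Within a library the TPM of NADK over that of NADK2 was 3.50 and 3.33 with DMSO and 6.58 and 4.30 with niraparib. Both niraparib libraries had the higher ratio. This ratio was chosen after its values were seen, and with 2 libraries a group an exact two-sided permutation test cannot go below p = 0.333. It joins a transcript of 56.5% GC, NADK, to one of 40.4%, NADK2. After adjustment for GC content the log2 changes were -0.11 for NADK and -0.28 for NADK2, and the ratio was not tested.

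NNT (chromosome 5 from 43602794 to 43707507, plus strand, GRCh37) encodes the transhydrogenase of the inner mitochondrial membrane, which uses the proton gradient to pass hydride from NADH to NADP. It was at 29.3 TPM in both DMSO libraries and at 25.2 and 28.5 TPM with niraparib. Both niraparib libraries were lower, by less in the second than in the first. The log2 change was -0.13 (95% interval -0.35 to 0.10, limma adjusted p = 0.312), and 0.13 after adjustment for GC content. The antisense transcript NNT-AS1 shares 295 exon bases with it and was at 6.02 and 4.90 TPM with DMSO and 8.13 and 6.43 TPM with niraparib, so reads of the 2 genes cannot be told apart there without strand.

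NNMT (chromosome 11 from 114128509 to 114184258, plus strand, GRCh37) encodes the enzyme that methylates nicotinamide with S-adenosylmethionine and so removes it from salvage. It was at 9.69 and 7.21 TPM with DMSO and at 12.1 and 11.4 TPM with niraparib. The lower niraparib value exceeded the higher DMSO value. A log2 change of 0.45 (SE 0.16, 95% interval 0.05 to 0.84) did not pass the test (limma adjusted p = 0.0830). After adjustment for GC content it was 0.43 (limma adjusted p = 0.0965).

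Of the NAD consumers, SIRT1 (chromosome 10 from 69644414 to 69678147, plus strand, GRCh37), a nuclear protein deacetylase, was at 11.0 and 10.4 TPM with DMSO and at 9.10 and 12.1 TPM with niraparib. The niraparib libraries enclosed the DMSO libraries. Its log2 change was -0.02 (95% interval -0.41 to 0.37, limma adjusted p = 0.923) and 0.20 after adjustment for GC content. SIRT6 (chromosome 19 from 4174106 to 4182563, minus strand, GRCh37), a chromatin-bound deacylase with roles in telomere maintenance and DNA repair, was at 25.1 and 29.5 TPM with DMSO and at 32.1 and 30.0 TPM with niraparib. Both niraparib libraries were above the DMSO libraries, the nearest values lying close together. Its log2 change was 0.18 (95% interval -0.08 to 0.44, limma adjusted p = 0.230) and -0.12 after adjustment for GC content.

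**Figure D2:**
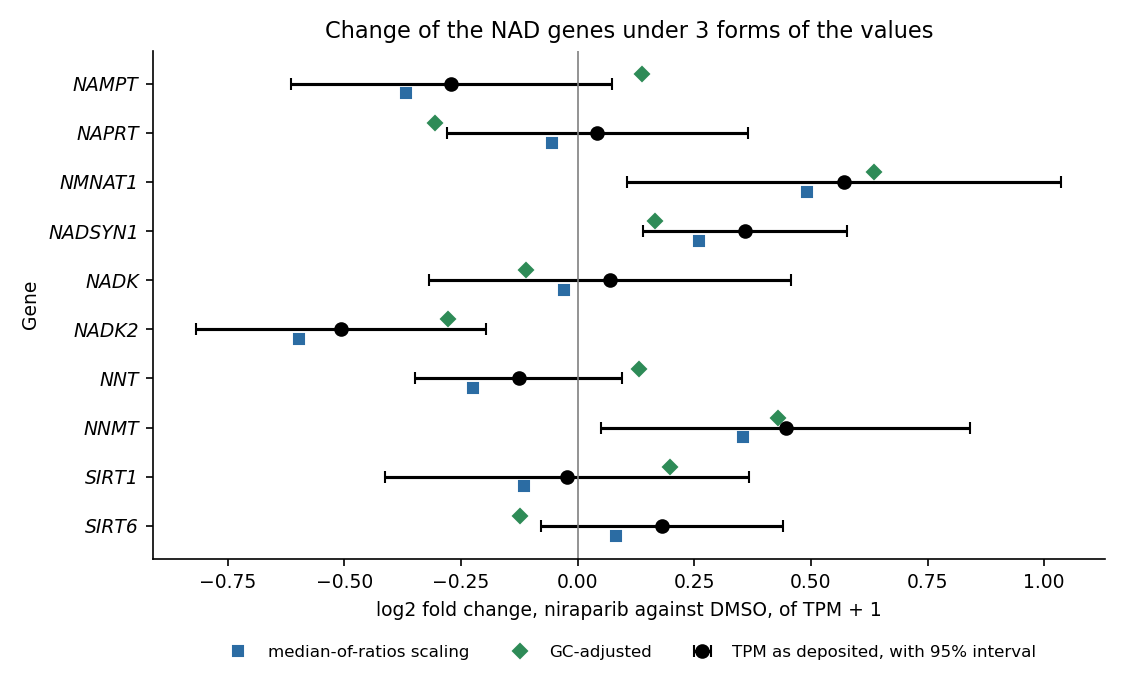
Log2 change of the 10 NAD genes, niraparib against DMSO, on the log2(TPM + 1) scale, from TPM with its 95% interval (limma), with median-of-ratios scaling and after adjustment for GC content. The intervals of NADSYN1, NMNAT1 and NNMT lie above 0 and that of NADK2 below 0, and the GC-adjusted values of NAMPT, NAPRT, NADK, NNT, SIRT1 and SIRT6 fall on the other side of 0 from their TPM values.

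The 10 genes spanned a moderate range of levels, from the 39.0th percentile of mean TPM over all genes in the table for NMNAT1 to the 78.8th for NADK. With DMSO the order of mean TPM was NADK, NNT, NAMPT, SIRT6, NADSYN1, NAPRT, SIRT1, NADK2, NNMT and NMNAT1. Neighbours in this order were separated in both libraries only between NADK and NNT, between NAPRT and SIRT1, and between NNMT and NMNAT1. With niraparib the order was NADK, NADSYN1, SIRT6, NNT, NAMPT, NAPRT, NNMT, SIRT1, NADK2 and NMNAT1, with separation after SIRT6, NAPRT, SIRT1 and NADK2. Within a library NADSYN1 over NAMPT was 0.852 and 0.808 with DMSO and 1.53 and 1.12 with niraparib, so NADSYN1 was the lower of the pair in both DMSO libraries and the higher in both niraparib libraries. This pair was chosen after its values were seen. It joins a transcript of 57.4% GC to the one lowest in GC of the 10, NAMPT at 34.3%. After adjustment for GC content the log2 changes were 0.17 for NADSYN1 and 0.14 for NAMPT, and the ratio was not tested.

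The changes followed the base composition of the transcripts. Over 12522 genes with an annotated sequence, the log2 change and the GC content of the longest transcript had a Spearman's rho of 0.51. Genes are not independent of each other, so this is a description. When the genes were ordered by GC content and split into 10 bins of equal size, the bin poorest in GC had a median change of -0.27 and the richest bin 0.36. Among the 10 NAD genes, whose GC content ran from 34.3% for NAMPT to 67.9% for NAPRT, rho was 0.58 over genes that share the same 4 libraries. The 2 niraparib libraries also differed along GC content for these genes, with a rho of 0.72 for the log2 ratio of replicate 1 to replicate 2. Over all genes the slope of that ratio was 0.063 on the log2 scale per 10 percentage points of GC content. The slope of the change with niraparib was 0.24. These slopes cannot be set against the rho of the 10 genes. Relative to the median of their own GC bin, NMNAT1 (0.57 beside 0.05), NNMT (0.45 beside 0.13) and NADSYN1 (0.36 beside 0.24) were higher. So were SIRT1 (-0.02 beside -0.11) and NNT (-0.13 beside -0.18). Lower than their bin were NADK2 (-0.51 beside -0.18), NAPRT (0.04 beside 0.36), SIRT6 (0.18 beside 0.36) and NADK (0.07 beside 0.24). NAMPT was at the median of its bin (both -0.27). After adjustment for GC content no member passed the test, where 26.2% of all genes did. With median-of-ratios scaling NADK2 alone passed, where 31.6% of all genes did.

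**Figure D3:**
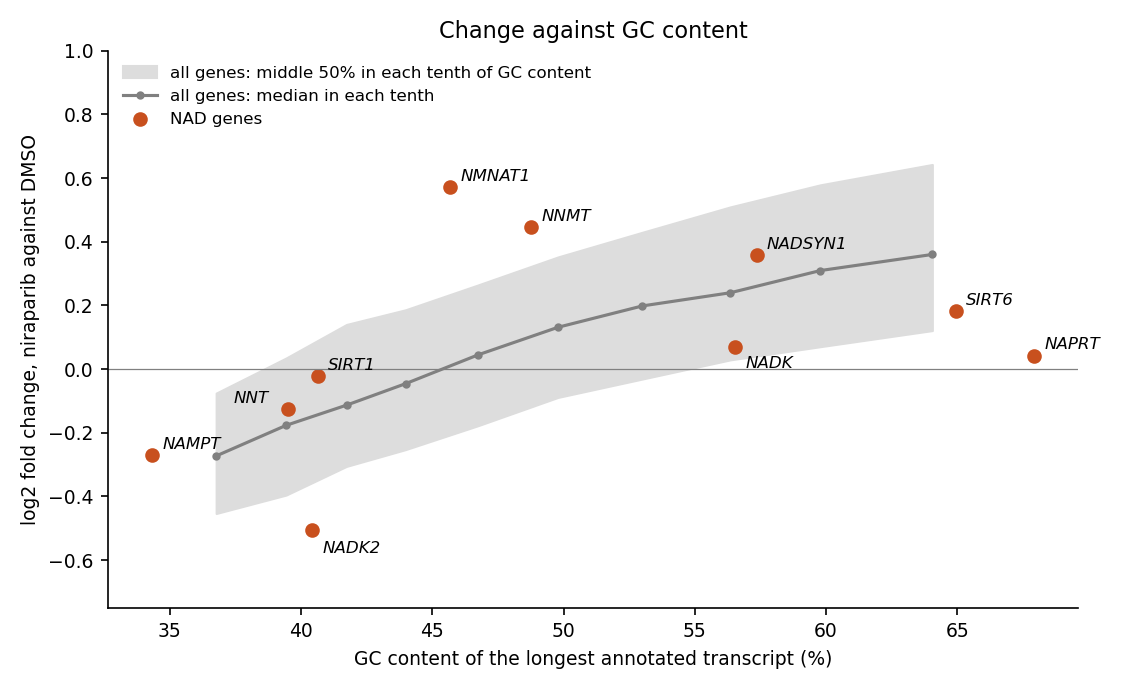
Log2 change, niraparib against DMSO, against GC content (%) of the longest annotated transcript, with the median and quartiles of all genes in 10 bins of GC content and the 10 NAD genes named. The medians rise from -0.27 to 0.36. NMNAT1 and NNMT lie furthest above them and NADK2 and NAPRT furthest below, with SIRT6 and NADK also below.

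The rest of the pathway was taken from lists by role that hold 54 further genes, of which 45 were in the table and 39 were tested. Of these 7 were higher and 6 lower with niraparib, where the shares over all genes tested were 20.8% and 11.7%, so the counts are near the background. The median change was 0.08, beside 0.07 over all genes. The calls of QPRT, IDH2, GOT1, SIRT2, SIRT3 and SIRT7 were kept when any one of the 4 libraries was left out, after adjustment for GC content and with median-of-ratios scaling.

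In de novo synthesis, 5 of the 7 genes in the table were tested, and QPRT rose beside NADSYN1. These were 2 of 5, where 20.8% of all genes tested were higher. QPRT, the quinolinate phosphoribosyltransferase through which tryptophan carbon enters NAD, went from 1.10 and 1.57 TPM to 5.85 and 6.84 TPM. Both niraparib libraries were several-fold above the DMSO libraries. The log2 change was 1.66 (SE 0.18, limma adjusted p = 0.00459). HAAO, the enzyme just before it, was at 1.22 and 0.55 TPM with DMSO and 2.04 and 2.13 TPM with niraparib (0.73, limma adjusted p = 0.0657). TDO2, IDO2, KMO and ACMSD had no entry in the table, and IDO1 and KYNU were below the filter. None of the 6 tested salvage genes passed, where 32.4% of all genes tested did. NMRK1, the nicotinamide riboside kinase, was at 0.39 (limma adjusted p = 0.124). After adjustment for GC content NMRK1 was called at 0.56 (limma adjusted p = 0.0443). NMNAT2, the cytosolic adenylyltransferase, was at 0.43 (limma adjusted p = 0.0971, and 0.0394 without trend and robust priors).

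Among the 10 NADP and NADPH enzymes listed, all tested, 2 were higher and 2 lower, again beside 20.8% and 11.7% over all genes. IDH2, the mitochondrial NADP-dependent isocitrate dehydrogenase, rose from 99.6 and 88.1 TPM to 176.9 and 179.1 TPM (0.92, SE 0.070, limma adjusted p = 0.00254). PGD, a dehydrogenase of the pentose phosphate route, rose by little (0.23, limma adjusted p = 0.0386). It was no longer called when any one of the 4 libraries was left out (limma adjusted p of 0.0532 to 0.157) and with median-of-ratios scaling (0.13, limma adjusted p = 0.151). ME1, the cytosolic malic enzyme, fell beside NADK2, from 9.69 and 9.78 TPM to 5.88 and 5.31 TPM (-0.70, limma adjusted p = 0.0121). It was not called without the first (adjusted p = 0.0563) or the second DMSO library (adjusted p = 0.0538, limma), nor after adjustment for GC content (-0.44, limma adjusted p = 0.0521).

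Around NNMT, both subunits of the methionine adenosyltransferase that supplies its methyl donor were lower. They were 2 of 5 genes in that list, where 11.7% of all genes tested were lower. MAT2A, the catalytic subunit, went from 91.9 and 84.9 TPM to 71.2 and 65.7 TPM (-0.36, limma adjusted p = 0.0179), and it was not called without the first DMSO (adjusted p = 0.0817) or the second niraparib library (adjusted p = 0.0637, limma). MAT2B, the regulatory subunit, went from 31.2 and 32.3 TPM to 24.99 and 26.19 TPM (-0.30, limma adjusted p = 0.0338), and was 0.01 after adjustment for GC content. The MAT2B call was lost when any one of the 4 libraries was left out (limma adjusted p of 0.0641 to 0.153). AHCY, which clears the product of the methyl transfer, had a change of 0.09 (limma adjusted p = 0.0889), and -0.08 after adjustment for GC content. With the adjusted values also centred, AHCY was called lower (-0.15, limma adjusted p = 0.0295).

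The carrier, repair and shuttle lists held 1 call in each direction or fewer, where 20.8% of all genes tested were higher and 11.7% lower. SLC29A1, a nucleoside carrier that also takes up nicotinamide riboside, fell from 75.5 and 75.8 TPM to 64.5 and 63.5 TPM (-0.24, limma adjusted p = 0.0261), the 1 call among 3 carriers. NUDT12, an NADH pyrophosphatase, fell from 2.7 and 3.25 TPM to 1.28 and 1.61 TPM (-0.70, limma adjusted p = 0.0376), the 1 call among 5 repair and breakdown genes. After adjustment for GC content NUDT12 was at -0.29 (limma adjusted p = 0.250) and SLC25A13, described next, at -0.28 (limma adjusted p = 0.0640). In the NADH shuttles the cytosolic aspartate aminotransferase GOT1 rose from 42.9 and 48.0 TPM to 71.6 and 70.8 TPM (0.64, limma adjusted p = 0.00524). The mitochondrial aspartate and glutamate carrier SLC25A13 fell from 21.5 and 20.5 TPM to 16.5 and 15.7 TPM (-0.36, limma adjusted p = 0.0302), and the other 6 tested shuttle genes did not pass. The calls of SLC29A1, NUDT12 and SLC25A13 were lost when any one of the 4 libraries was left out, with limma adjusted p of 0.0723 to 0.117, 0.0755 to 0.151 and 0.0721 to 0.145. The targets of the drug, PARP1 (from 155.5 and 157.0 TPM to 126.4 and 124.0 TPM, -0.32, limma adjusted p = 0.0077) and PARP2 (from 42.8 and 38.9 TPM to 33.1 TPM in both, -0.29, limma adjusted p = 0.0391), were lower. The PARP2 call was lost when any one of the 4 libraries was left out (limma adjusted p of 0.0685 to 0.193).

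**Figure D4:**
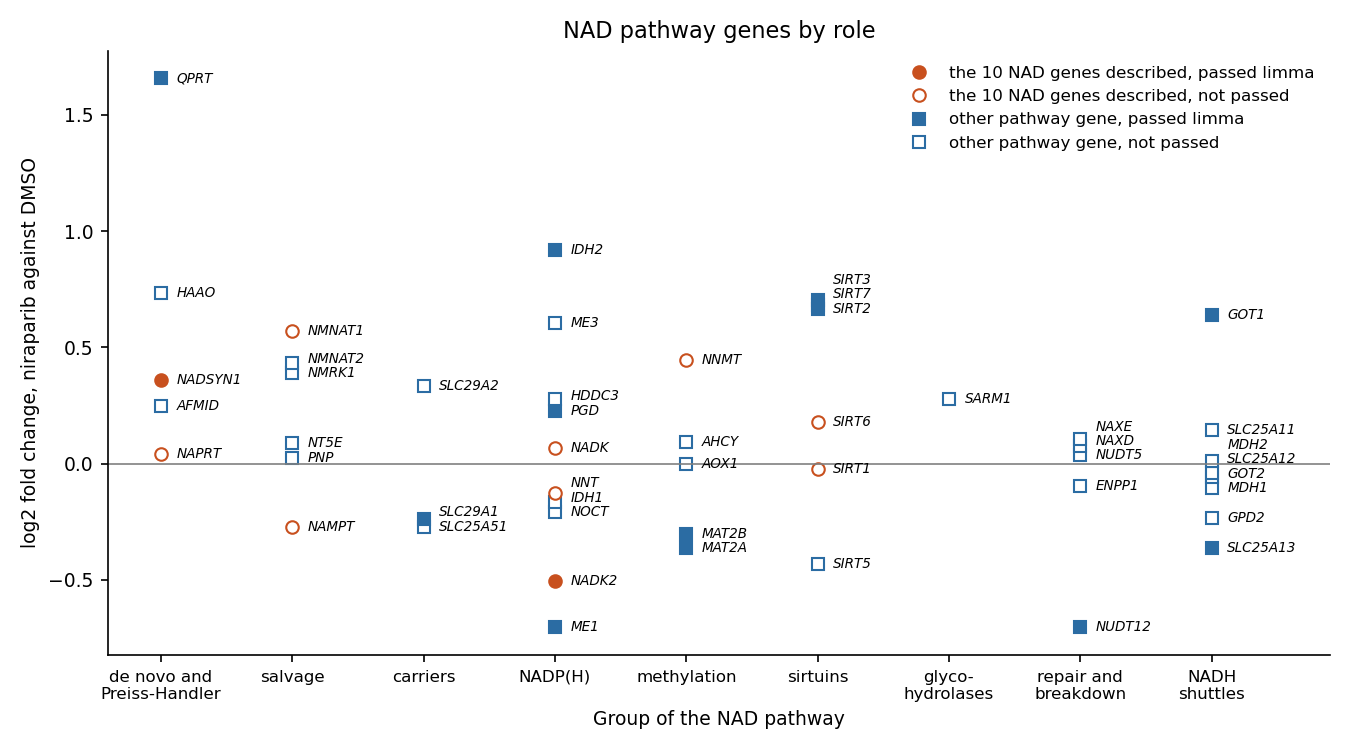
Log2 change of the tested NAD pathway genes, niraparib against DMSO, by list, with circles for the 10 NAD genes, squares for the others, and filled symbols for genes that passed the limma test. QPRT (1.66) and IDH2 (0.92) are the highest, and ME1 and NUDT12 (both -0.70) are the lowest.

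Within the sirtuin family, whose 7 genes share a catalytic core and use NAD as a co-substrate, SIRT1 and SIRT6 stood beside 3 relatives that rose. SIRT2, the mainly cytosolic deacetylase, was at 33.4 and 33.5 TPM with DMSO and at 53.0 and 54.3 TPM with niraparib (0.67, SE 0.063, limma adjusted p = 0.00338). SIRT3, the main mitochondrial deacetylase, was at 13.8 TPM in both DMSO libraries and at 22.9 and 23.3 TPM with niraparib (0.70, SE 0.083, limma adjusted p = 0.00531). SIRT7, which acts in the nucleolus, was at 15.1 and 15.2 TPM with DMSO and at 26.0 and 23.9 TPM with niraparib (0.68, SE 0.088, limma adjusted p = 0.00639). For each of these 3 genes the replicates were close together and the groups were far apart. SIRT5, a mitochondrial desuccinylase, was at 7.18 and 4.03 TPM with DMSO and at 3.41 and 4.13 TPM with niraparib (-0.43, limma adjusted p = 0.254), and SIRT4 was at or below 0.73 TPM and was not tested. Of the 6 tested sirtuins 3 were higher, where 20.8% of all genes tested were. Their median change was 0.42, beside 0.07 over all genes. After adjustment for GC content it was 0.31, beside 0.08 over all genes. The same 3 passed under it, where 26.2% of all genes passed in either direction. Whether the changes of SIRT1 and SIRT6 differed from those of their relatives was not tested.

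**Figure D5:**
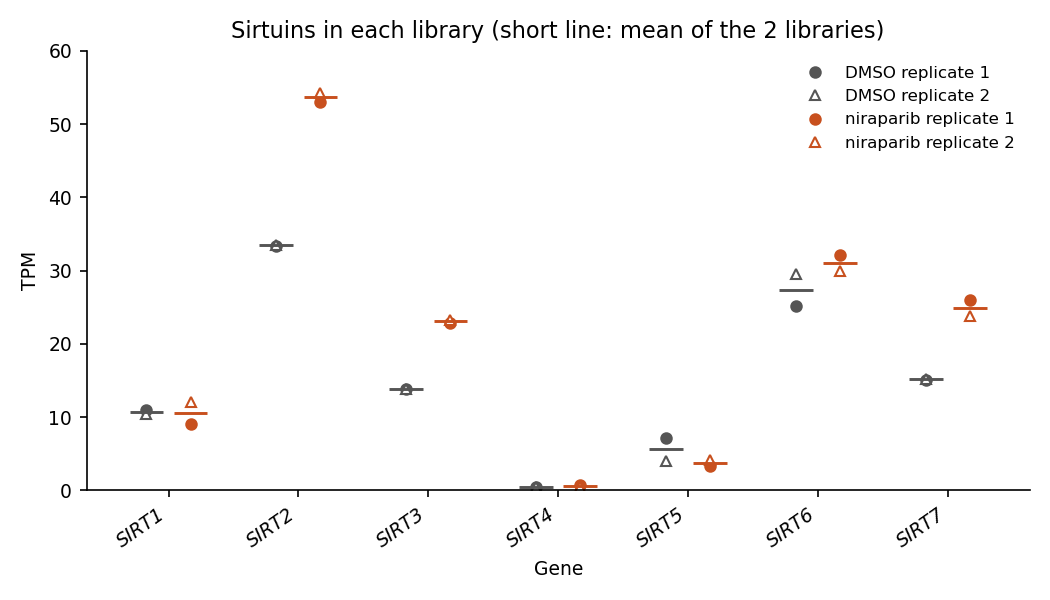
TPM of the 7 sirtuin genes in each of the 4 libraries, with circles for replicate 1, triangles for replicate 2 and a short line at the mean of each group. SIRT2, SIRT3 and SIRT7 are higher in both niraparib libraries with close replicates, while the libraries of SIRT1 and SIRT5 overlap between groups and those of SIRT6 nearly meet.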

How the data were processed

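Reads from Cal-62 cells were trimmed with Trim Galore by the authors. The methods name STAR and hg19 and the submitters' processing notes name HISAT2, hg38 and mm10, so aligner and build could not be settled, and the counting tool is not given in the sources used here. The deposited table holds TPM per gene symbol for each library (sums of 994264 to 995352.5), although it is described as counts, so depth and counting error are unknown. Values were analysed as log2(TPM + 1) in limma 3.58.1 (R 4.3.3) with trended, robust priors, no covariate and all 4 libraries, after the filter of 1 TPM in 2 libraries. Intervals are at 95%. Median-of-ratios and upper-quartile scaling, pseudocounts of 0.1 and 0.5, filters, priors, a replicate block, leaving out each library, and a loess adjustment (span 0.5) for GC content were alternatives. GC content came from the longest GENCODE v44 transcript lifted to GRCh37, matched for 88.8% of symbols (14652 directly and 193 by synonym). Promoters were matched in RefSeq for 8 of the 10 genes. Named genes were the 10, all 7 sirtuins, PARP1 and PARP2, and up to 4 tested genes of each NAD list with the smallest limma p. IDO1, KYNU, ME3, AOX1, the pseudogene NAMPTP1 and genes overlapping a member were added after their values were seen. The members and lists were chosen with earlier results of these data known. Items withheld for evaluation are not reported here and were left out of the lists. The fit was tested on simulated data.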

Additional observations from a re-analysis of the deposited data

How the results depend on the processing

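Of the 10 genes, 1 was called higher with the settings of the report and 0 with median-of-ratios scaling, upper-quartile scaling, limma without trend and robust priors, adjustment for GC content with or without centring, or a further requirement of 1.5-fold. Leaving out each library in turn gave 0 in every case. The 1 called lower was lost (0) with adjustment for GC content with or without centring and with the 1.5-fold requirement, and leaving out each library gave 0 to 1, the 1 being NAMPT without the second niraparib library. Among NAD pathway genes, 7 were lower, and 4 without trend and robust priors, 2 with adjustment for GC content, 2 with 1.5-fold and 0 to 2 without 1 library. Over all genes, the 2780 higher became 1504 with GC adjustment and centring, 1402 with 1.5-fold and 1211 to 1601 without 1 library, and the 1559 lower became 1017 without trend and robust priors, 480 with 1.5-fold and 639 to 1186 without 1 library. The added requirement reduces calls by construction. Leaving out a library refits the model on fewer samples and can add calls as well as lose them. For it and for the other settings the cause was not tested.

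With the replicate number as a block, 2400 genes were higher and 1339 lower, 4 NAD pathway genes were lower and 0 of the 10 genes (NADK2 limma adjusted p = 0.0528). The labels do not say whether the numbers pair the samples. The replicate differences of the groups had r = -0.01 across 13377 genes. This value cannot show whether libraries of the same number were handled together.

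Log2 changes that turned direction with GC adjustment (and with centring) were those of NAMPT 0.14 (0.064), NAPRT -0.31 (-0.38), NADK -0.11 (-0.18), NNT 0.13 (0.057), SIRT1 0.20 (0.12), SIRT6 -0.12 (-0.20), AHCY -0.080 (-0.15), NAXD -0.067 (-0.14) and SLC25A11 -0.077 (-0.15). MAT2B turned to 0.011 with GC adjustment alone and NAXE to -0.035 only with centring. Of these turned changes only that of AHCY with centring passed the test (limma adjusted p = 0.0295). Median-of-ratios scaling turned NAPRT to -0.055, NADK to -0.029, AHCY to -0.0076, NAXD to -0.021 and NUDT5 to -0.065, and upper-quartile scaling turned NAPRT to -0.027, NADK to -0.00086 and NUDT5 to -0.036. Without 1 library the changes ranged from -0.10 to 0.19 for NAPRT, -0.14 to 0.28 for NADK, -0.21 to 0.17 for SIRT1 and -0.0082 to 0.16 for NAXD. Of 39 named and tested genes, 17 were called, and 7 of these (SIRT2, SIRT3, SIRT7, PARP1, QPRT, IDH2 and GOT1) kept their call in each of 14 alternatives, which do not include the 1.5-fold requirement (PARP1, with a ratio of mean TPM of 0.801, does not meet it). TPM keeps no depth, so counting error could not be given for low genes such as NMNAT1 and NUDT12.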

Other observations

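The NAD pathway genes not described above did not pass the test, and several were level between the groups. ME3, of the NADP and NADPH list, fell just short of the threshold. It was at 13.8 TPM in both DMSO libraries and at 25.9 and 18.0 TPM with niraparib (0.61, limma adjusted p = 0.0502). After adjustment for GC content it was at 0.42 (limma adjusted p = 0.109). The hydrate repair enzymes NAXE (124.7 and 124.6 TPM with DMSO, 136.4 and 132.3 TPM with niraparib, limma adjusted p = 0.136) and NAXD (19.0 and 21.5 TPM, then 21.1 and 21.7 TPM, limma adjusted p = 0.571) had log2 changes of 0.11 and 0.08. SARM1, an NAD glycohydrolase known for its part in axon degeneration, was at 14.6 and 14.2 TPM with DMSO and 17.1 and 18.2 TPM with niraparib, with both niraparib libraries higher (0.28, limma adjusted p = 0.0695). SLC25A51, the mitochondrial NAD carrier, was at 8.44 and 6.38 TPM with DMSO and 5.81 and 6.03 TPM with niraparib, with both niraparib libraries lower (-0.27, limma adjusted p = 0.245). AFMID, the kynurenine formamidase of the de novo route, was at 16.3 and 17.9 TPM with DMSO and 18.3 and 23.0 TPM with niraparib (0.25, limma adjusted p = 0.202), and AOX1, which oxidises methylnicotinamide, had a change of -0.00093 (limma adjusted p = 0.996).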
